A study of Rattus norvegicus with 192 samples.

Results

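Hbb, Hbb-b1 and Hba-a1, which encode beta-type and alpha-type chains of hemoglobin, were followed in the prefrontal cortex and hippocampus of rats after an inflammatory challenge. They were taken as all probes that the platform annotation names by 1 of these 3 symbols, which gave 3 of the 13336 gene symbols on the array, with 1 probe each among 22502 probes. The genes were chosen by measured values, because their signal at day 16 had been higher after adjuvant than after saline in these arrays, so the day 16 adjuvant difference is given below as a description with no test. Of the 3 probes, 3 passed the filter on low signal, and each was detected on 192 of 192 arrays.

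The rats were adult female Sprague Dawley rats, and their dams had received chow (control), an isocaloric liquid diet matched to an ethanol dam's intake (pairfed), or a liquid diet with 36% of calories from ethanol (ethanol) from gestation day 1 to 21. At 50 to 65 days of age the offspring got saline or complete Freund's adjuvant, an agent that induces arthritis, into the skin at the base of the tail (adjuvant volume 0.1 ml, concentration 12 mg/ml), and brains were taken 16 or 39 days later. Diet, injection and day defined 12 groups per tissue, with 5 rats in each saline day 16 group, 6 in each saline day 39 group and 9 in each adjuvant group, except 8 control and 7 pairfed adjuvant rats in the hippocampus at day 39. The series held 192 Illumina rat BeadChip arrays on 16 chips of 12, and 1 array per rat gave 87 prefrontal cortex and 84 hippocampus rats, of which 84 rats gave both tissues. The sources used here name neither the litter of a rat nor whether blood was rinsed from the vessels, and each rat was counted as independent in the tests. Each chip held a single tissue, so levels were not compared between the tissues, and levels of different probes were not compared either.

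Hemoglobin is the oxygen carrier of red blood cells, a tetramer of alpha-type and beta-type globin chains that each hold a heme group. Red cells of mammals have no nucleus, and young red cells, the reticulocytes, still carry globin mRNA. In brain tissue globin mRNA can come from blood left in the vessels, and neurons and glia have also been described to make some of it. In bulk tissue, more cells that carry a transcript and more transcript per cell cannot be told apart.

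Hbb lies on chromosome 1 at chr1:167662310-167663721, Hbb-b1 on the same chromosome at chr1:167636064-167643577, and Hba-a1 on chromosome 10 at chr10:15841724-15842580, in assembly GRCr8 as given by RefSeq. The 3 members were matched to RefSeq by gene identifier, and 3 of 3 had a promoter sequence. The 250 bases before the start that the RefSeq promoter table uses for each gene are shown because these genes varied together between rats. All 3 genes are on the minus strand, and the windows are chr1:167663722-167663971 for Hbb, chr1:167643521-167643770 for Hbb-b1 and chr10:15842581-15842830 for Hba-a1. For Hbb and Hba-a1 that start is the outer end of the gene, while for Hbb-b1 it is base 167643520, inside the span given above, so that 57 bases of the Hbb-b1 window lie within the gene's outer span. Capitals mark matches, on either strand, to 4 elements known from globin promoters: the CCAAT box, the CACCC box, ATAAA as part of a TATA box, and GATAAG, a core bound by GATA factors.
Hbb: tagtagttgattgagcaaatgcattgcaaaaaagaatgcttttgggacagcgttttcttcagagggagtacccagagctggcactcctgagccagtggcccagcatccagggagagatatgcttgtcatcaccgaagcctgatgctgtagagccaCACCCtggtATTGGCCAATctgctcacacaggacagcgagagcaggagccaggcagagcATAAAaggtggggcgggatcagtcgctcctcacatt
Hbb-b1: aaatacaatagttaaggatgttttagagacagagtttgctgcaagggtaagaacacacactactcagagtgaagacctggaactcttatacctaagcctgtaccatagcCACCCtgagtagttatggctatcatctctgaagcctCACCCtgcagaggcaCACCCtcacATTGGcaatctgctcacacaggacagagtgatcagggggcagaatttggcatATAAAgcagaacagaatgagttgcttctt
Hba-a1: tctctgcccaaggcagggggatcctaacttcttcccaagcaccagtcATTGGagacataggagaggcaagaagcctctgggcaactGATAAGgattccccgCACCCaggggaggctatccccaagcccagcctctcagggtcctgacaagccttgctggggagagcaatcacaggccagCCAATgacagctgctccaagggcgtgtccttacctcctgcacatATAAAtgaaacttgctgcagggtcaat
Counted back from the start, ATAAA began at base 36 in Hbb, 29 in Hbb-b1 and 27 in Hba-a1. The nearest CCAAT match to the start began at base 81 in Hbb, at base 81 on the opposite strand in Hbb-b1 and at base 71 in Hba-a1. In Hbb a CCAAT match on each strand adjoined the other without overlap, which gave the run of 10 capitals at bases 86 to 77. CACCC occurred at 1 place in Hbb, 3 places in Hbb-b1 and 1 place in Hba-a1, and GATAAG at 1 place in Hba-a1. Of 33469 RefSeq promoters of the same length, 34% held CCAAT, 49.2% CACCC, 39.3% ATAAA and 6.18% GATAAG, and 5.5% held the first 3 motifs together, as each of the 3 members did. The longest stretch shared by the Hbb and Hbb-b1 windows was 21 bases, at bases 80 to 60 in Hbb and 76 to 56 in Hbb-b1. The window of Hba-a1 was 96.4% identical, base by base, to that of its neighbour Hba-a2 (241 of 250 bases), and RefSeq lists each symbol of the pair among the older names of the other. The transcripts of the pair were not compared, and which of them the Hba-a1 probe binds was not analysed here, so its signal may include Hba-a2.

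Hemoglobin signal was among the brighter signals in both tissues. Raw signals were ranked within each array, and the median percentile over arrays was taken. It was 99.1 among all cortical probes and 98.7 among all hippocampal probes for Hbb, 96.5 and 95.3 for Hbb-b1, and 99.3 and 99.2 for Hba-a1. Markers of the dissected tissue were read alongside. The neuronal genes Gad1 and Nefl and the neocortical gene Fezf2 were detected on 87 of 87 prefrontal cortex and 84 of 84 hippocampus arrays. Of the neuron genes read, only Rbfox3 was not detected on every array, with 64 of 87 and 45 of 84. Prox1, a marker of dentate granule cells, was detected on 57 of 84 hippocampus and 31 of 87 prefrontal cortex arrays, and Rorb, a neocortical gene, on 76 of 87 prefrontal cortex and 58 of 84 hippocampus arrays. The other hippocampus genes on the array did not separate the tissues. Calb1 was detected on 84 of 84 hippocampus and 87 of 87 prefrontal cortex arrays, Lct on 7 and 8, and Tdo2 on 0 and 1. Ttr, which marks the choroid plexus, was detected on 84 of 84 hippocampus arrays and 22 of 87 prefrontal cortex arrays. Other choroid plexus genes were unequal in this: Otx2 was detected on 72 and 2 arrays, Kl on 40 and 8, and Folr1 on 30 and 0. Kcnj13 was detected on 78 of 84 and 76 of 87, with little difference between the tissues. A prefrontal cortex array detected 7578 to 10949 probes and a hippocampus array 8140 to 11235.

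In 83 of 84 rats the prefrontal cortex array matched the hippocampus array of the same rat best, over 37 probes that varied by rat in both tissues. These probes were chosen by a correlation above 0.7 between the tissues over the same labelled pairs. That choice favours the labelled match, so the count is a description. The exception was replicate 3 of the pairfed saline day 16 group in the prefrontal cortex, with a correlation of 0.249 to its own rat and 0.76 to the rat whose cortical array is replicate 5 of the ethanol saline group at day 16. That array was kept as labelled. Without it the day 16 adjuvant difference in the prefrontal cortex was 0.80 for Hbb, 0.79 for Hbb-b1 and 0.44 for Hba-a1 on the log2 scale, against 0.79, 0.82 and 0.45 with it. In 3 repeat hybridizations of 1 hippocampus rat the title and treatment field say saline and another field says adjuvant. They were taken as saline, and these arrays enter only the spread between repeats and the averages of repeat arrays.

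At day 16 the 3 hemoglobin signals were higher after adjuvant than after saline in both tissues. Values are log2 normalized signals, and differences are log2 adjuvant minus saline with their standard error (SE), averaged over the 3 diets in a linear model with chip as a term. In the prefrontal cortex Hbb, a beta-type chain, ran from 11.80 to 13.35 (median 12.36) in 15 saline rats and from 12.18 to 14.24 (median 13.29) in 27 adjuvant rats. The difference was 0.79 ± 0.16 (SE), or 1.72-fold, with 24 of 27 adjuvant rats above the saline mean and 11 above the highest saline rat. The saline and adjuvant rats therefore overlapped, and 0 of the adjuvant rats lay below the lowest saline rat.

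Hbb-b1, the second beta-type chain, ran from 10.13 to 11.31 (median 10.96) in saline and from 10.42 to 12.70 (median 11.68) in adjuvant rats of the same tissue. Its difference was 0.82 ± 0.16 (SE), or 1.77-fold, and 21 of 27 adjuvant rats were above the highest saline rat. Less separation was seen for Hba-a1, the alpha-type chain, which ran from 12.20 to 13.68 (median 12.86) in saline and from 12.62 to 14.07 (median 13.28) in adjuvant rats. The Hba-a1 difference was 0.45 ± 0.14 (SE), or 1.36-fold, and 6 of 27 adjuvant rats exceeded the highest saline rat.

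In the hippocampus the difference was largest for Hbb-b1 among the 3 probes. It ran from 8.83 to 11.66 (median 9.92) in 15 saline and from 10.08 to 12.17 (median 11.01) in 27 adjuvant rats, a difference of 1.13 ± 0.18 (SE), or 2.19-fold. All 27 adjuvant rats were above the saline mean, and 4 were above the highest saline rat, since 1 ethanol saline rat lay at 11.66. Hba-a1 ran from 11.22 to 12.90 (median 12.24) in saline and from 11.93 to 14.02 (median 13.00) in adjuvant rats, a difference of 0.94 ± 0.17 (SE), or 1.91-fold, with 18 of 27 adjuvant rats above the highest saline rat. Hbb ran from 11.28 to 12.99 (median 12.21) in saline and from 11.37 to 13.52 (median 12.76) in adjuvant rats, a difference of 0.64 ± 0.17 (SE), or 1.56-fold, with 11 of 27 above the highest saline rat.

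**Figure D1:**
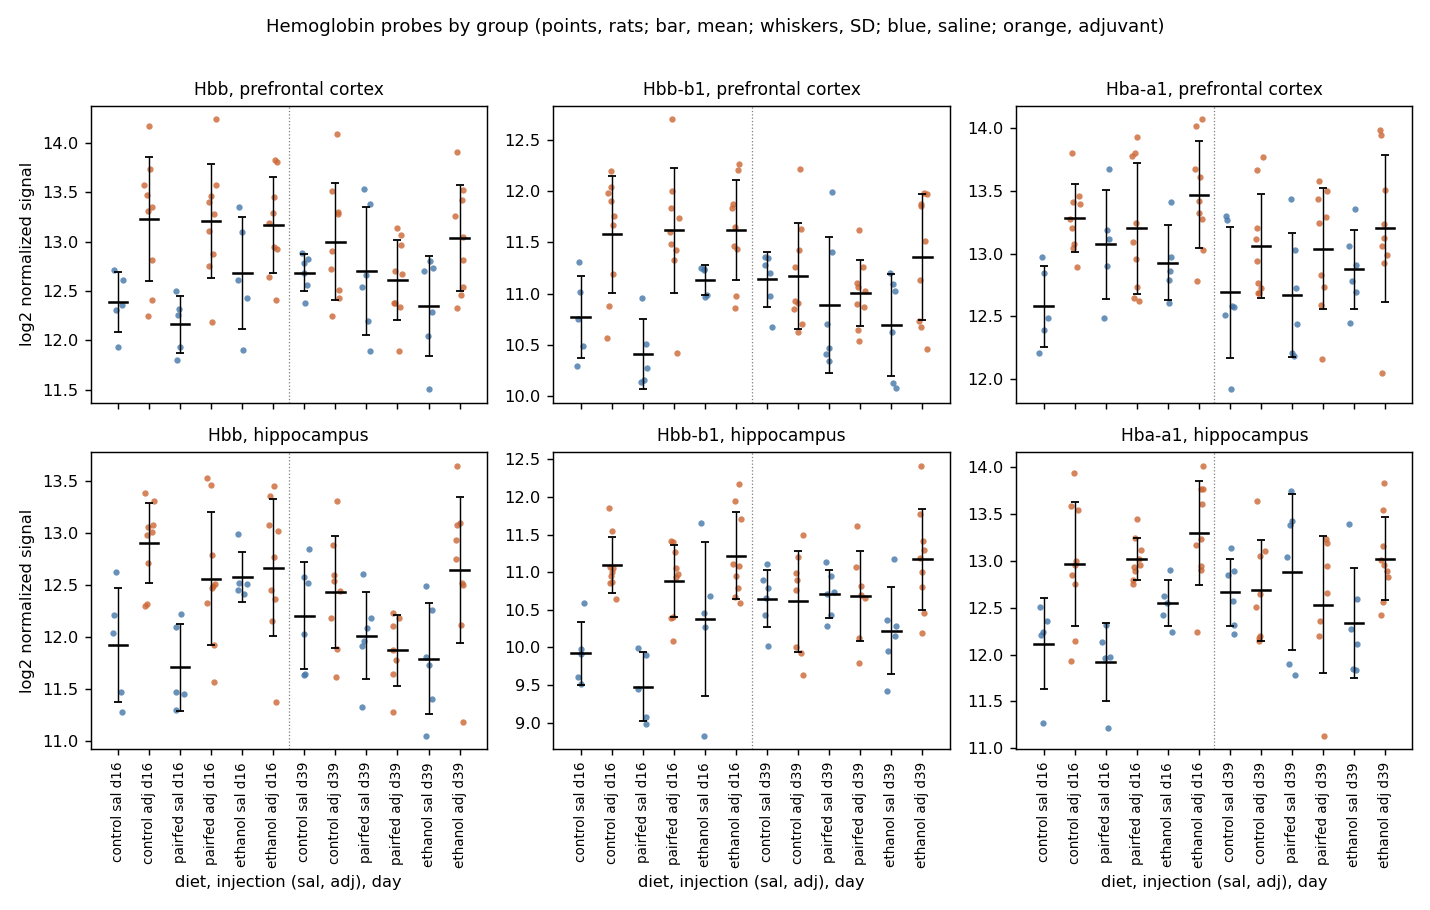
Log2 normalized signal (y axis) of Hbb, Hbb-b1 and Hba-a1 in the 12 groups of diet, injection and day (x axis), for each tissue; points are rats (blue saline, orange adjuvant), bars are group means and whiskers the SD. To the left of the dotted line (day 16) the adjuvant groups have higher means than the saline group of the same diet in each of the 6 panels, and the rats of the groups overlap in most diets.

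Across all probes, 20 of 15250 were called at an adjusted p below 0.05 at day 16 in the prefrontal cortex (0.131%, and 0.125% higher in adjuvant rats). In the hippocampus 9 of 15320 were called (0.0587%, all of them higher). Of the members, Hbb and Hbb-b1 were among the cortical calls, and Hbb-b1 and Hba-a1 among the hippocampal ones, 2 of 3 in each tissue. This contrast chose the genes, so nothing is read from those counts. When the arrays were scaled to a common median in place of quantile normalization, the median of all hippocampus probes moved to -0.12 and the hippocampal differences to 0.37 for Hbb, 0.85 for Hbb-b1 and 0.67 for Hba-a1, which is 0.48, 0.96 and 0.79 relative to that median, and 0 of the 3 was called.

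The day 16 difference was also read within single chips, each of which held arrays of several groups. In the prefrontal cortex adjuvant rats had the higher mean on 8 of 8 chips for Hbb (0.15 to 1.08) and Hbb-b1 (0.21 to 1.60) and on 7 of 8 for Hba-a1, where 1 chip gave -0.71. In the hippocampus 7 chips held both injections at day 16. Adjuvant rats were higher on 7 of 7 for Hbb-b1 (0.29 to 1.70) and Hba-a1 (0.68 to 1.05) and on 6 of 7 for Hbb, where 1 chip gave -0.25. These within-chip differences ignore diet and rest on 1 to 3 saline rats each.

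Within single diets the day 16 differences were positive for all 3 probes in both tissues, with wide intervals. Cortical Hbb differed by 0.92 in control, 1.01 in pairfed and 0.43 in ethanol rats. For Hbb-b1 the differences were 0.80, 1.17 and 0.49 in the same order. For Hba-a1 they were 0.74, 0.07 and 0.53, so that the pairfed rats showed next to no difference in that probe, with a 95% interval of -0.42 to 0.56. The pairfed saline rats had the highest Hba-a1 mean of the 3 saline day 16 groups in this tissue, 13.07 ± 0.43 (SD, n = 5).

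In the hippocampus Hbb differed by 1.02 in control, 0.79 in pairfed and 0.11 in ethanol rats, the last with an interval of -0.46 to 0.69. The ethanol saline rats at day 16 held the high Hbb values of their injection, 12.41, 12.45, 12.50, 12.51 and 12.99, against 11.28, 11.47, 12.04, 12.21 and 12.62 in control saline rats and 11.30, 11.45, 11.47, 12.09 and 12.22 in pairfed saline rats. The ethanol adjuvant rats ran from 11.37 to 13.45 around a median of 12.76, and 3 of 9 lay below the lowest ethanol saline rat. Hbb-b1 differed by 1.21, 1.35 and 0.84 and Hba-a1 by 0.93, 1.11 and 0.77, again for the control, pairfed and ethanol diets. For Hbb-b1, 9 of 9 adjuvant rats exceeded the highest saline rat in control and in pairfed rats, and 3 of 9 did in ethanol rats, where the 5 saline rats spread from 8.83 to 11.66.

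Split by diet, the day 16 contrast that chose the genes remains a description, and nothing is read from the 0 of 3 members called in each diet and tissue. The share of all probes called was 0.0328%, 0.0131% and 0% in control, pairfed and ethanol rats of the prefrontal cortex and 0.00653%, 0.0131% and 0.00653% in the hippocampus. The difference between diets in the day 16 response uses the rats that chose the genes and is also given with no test. The ethanol response of Hbb in the hippocampus minus the control response was -0.91 ± 0.40 (SE). The remaining day 16 differences of the ethanol response from the control or pairfed response ran from -0.68 to 0.46, and limma called 0% of probes in those comparisons in either tissue, with 472 to 812 probes at an unadjusted p below 0.05.

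**Figure D2:**
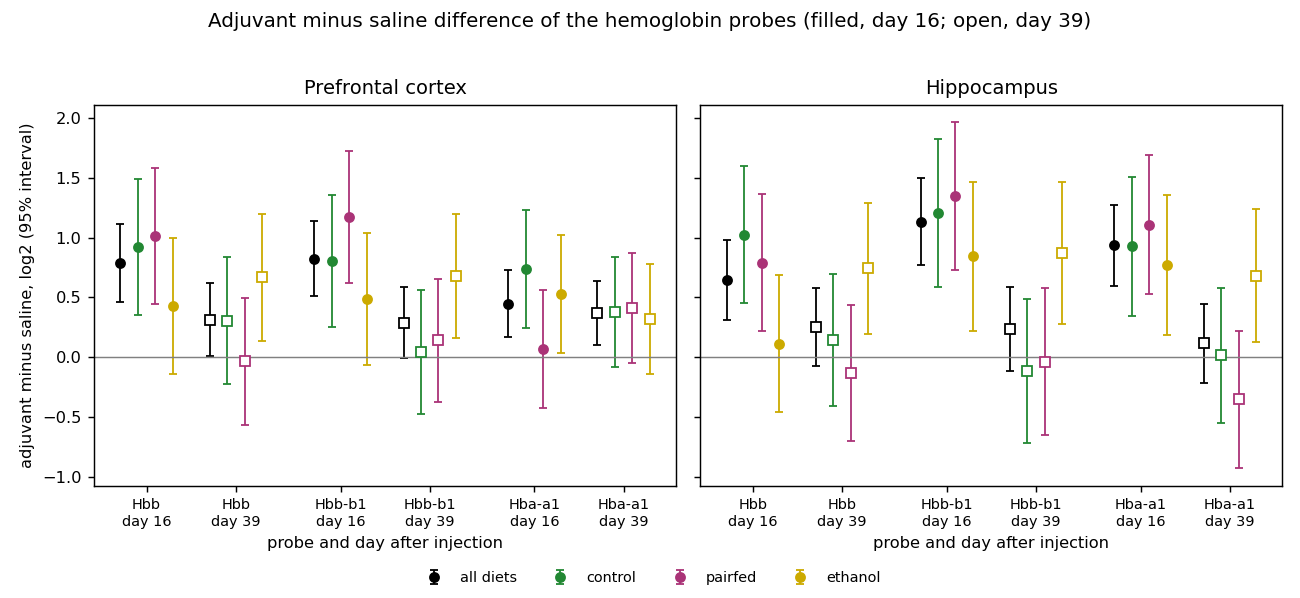
Adjuvant minus saline difference (y axis, log2, with 95% interval) of each hemoglobin probe at day 16 (filled circles) and day 39 (open squares), over all diets (black) and in control, pairfed and ethanol rats (x axis, probe and day). Day 16 values lie above 0 for every probe and diet, from 0.07 to 1.35; at day 39 the ethanol rats run from 0.32 to 0.87 and the control and pairfed rats from -0.35 to 0.41.

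At day 39, in other rats, the hemoglobin differences averaged over the diets were smaller than at day 16 and passed no test. The day 16 values chose the genes, and the change between the days was not tested. Within diets, Hbb and Hbb-b1 of ethanol rats differed more at day 39 in both tissues, hippocampal Hbb-b1 by little (0.87 against 0.84). So did cortical Hba-a1 of pairfed rats (0.41 against 0.07). The other single-diet differences were smaller at day 39. In the prefrontal cortex Hbb ran from 11.50 to 13.53 (median 12.67) in 18 saline and from 11.90 to 14.09 (median 12.81) in 27 adjuvant rats. The difference was 0.31 ± 0.15 (SE; p = 0.0448, adjusted p = 0.923). Hbb-b1 ran from 10.08 to 12.00 (median 11) in saline and from 10.46 to 12.22 (median 11.07) in adjuvant rats, a difference of 0.29 ± 0.15 (SE; adjusted p = 0.932). Saline and adjuvant rats overlapped over most of their range for both beta-type probes, and both ends of the range were higher in adjuvant rats. Hba-a1 ran from 11.92 to 13.44 (median 12.71) in saline and from 12.04 to 13.99 (median 13.12) in adjuvant rats, a difference of 0.37 ± 0.13 (SE; p = 0.00688, adjusted p = 0.792), with 7 of 27 adjuvant rats above the highest saline rat for Hba-a1 and 2 and 1 for Hbb and Hbb-b1.

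In the hippocampus at day 39 Hbb had a median of 11.99 in 18 saline rats (11.05 to 12.84) and 12.34 in 24 adjuvant rats (11.18 to 13.65). Hbb-b1 had medians of 10.55 (9.42 to 11.17) and 10.86 (9.64 to 12.42), and Hba-a1 of 12.58 (11.78 to 13.74) and 12.86 (11.13 to 13.84). The groups overlapped for each probe, with 6, 8 and 1 of 24 adjuvant rats above the highest saline rat for Hbb, Hbb-b1 and Hba-a1. The differences were 0.25 ± 0.16 for Hbb, 0.24 ± 0.18 for Hbb-b1 and 0.11 ± 0.17 for Hba-a1 (SE; adjusted p = 0.957, 0.957 and 0.980). Their 95% intervals were -0.07 to 0.58, -0.11 to 0.59 and -0.22 to 0.44. Median scaling gave 0.0339, 0.00796 and -0.10 and put the median of all hippocampal probes at -0.10, so that relative to it the values were 0.13, 0.11 and -0.01. limma called 0 of 15250 and 0 of 15320 probes at day 39 (0% in each tissue), while 814 and 770 had an unadjusted p below 0.05, so that 0 of 3 members called equals the background. The 3 probes lay on the higher side in both tissues, except hippocampal Hba-a1 with median scaling, beside 50.8% and 48.4% of all probes in the 2 tissues, and the 3 probes of a tissue share their rats and arrays.

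The day 39 differences were unequal between diets in size, though not past a test. In ethanol rats of the hippocampus the difference was 0.74 ± 0.28 for Hbb (p = 0.00872, adjusted p = 0.614), 0.87 ± 0.30 for Hbb-b1 (p = 0.00462, adjusted p = 0.596) and 0.68 ± 0.28 for Hba-a1 (p = 0.0173, adjusted p = 0.636; SE in each case). Ethanol rats gave, in the prefrontal cortex, 0.67 ± 0.27 for Hbb (adjusted p = 0.439), 0.68 ± 0.26 for Hbb-b1 (adjusted p = 0.420) and 0.32 ± 0.23 for Hba-a1 (adjusted p = 0.763). Control and pairfed rats gave -0.12 to 0.38 and -0.35 to 0.41 over both tissues. The ethanol adjuvant rats held the second highest group mean of 12 for Hbb-b1 and Hba-a1 in the hippocampus, 11.17 ± 0.67 and 13.02 ± 0.44 (SD, n = 9), and the ethanol saline rats at day 39 the tenth, 10.22 ± 0.58 and 12.34 ± 0.59 (SD, n = 6).

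The ethanol response at day 39 exceeded the control response in the hippocampus by 0.60 ± 0.39 for Hbb, 0.99 ± 0.42 for Hbb-b1 (p = 0.0210, adjusted p = 0.830) and 0.67 ± 0.39 for Hba-a1. Against the pairfed response it was 0.87 ± 0.40 for Hbb (p = 0.0304, adjusted p = 0.819), 0.91 ± 0.43 for Hbb-b1 (p = 0.0374, adjusted p = 0.845) and 1.04 ± 0.40 for Hba-a1 (p = 0.0121, adjusted p = 0.725). In the prefrontal cortex the same differences ran from -0.10 to 0.70. None of the 12 tests of a response difference at day 39 over both tissues passed the adjustment, and the lowest adjusted p was 0.725. All probes together gave 0% called in each of these comparisons and in the single-diet comparisons at day 39, except 0.00656% in pairfed rats of the prefrontal cortex. Where limma called 0 probes, 880 to 1018 had an unadjusted p below 0.05 in the response differences and 622 to 1310 in the single-diet comparisons.

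The difference between the tissues was tested by fitting the 171 arrays together over 14441 probes, with a random effect for the rat. That fit used 1 rat correlation for all probes, 0.0327. The members correlated between the tissues of a rat at 0.262 to 0.284, as given below, so their pairing entered the SE only in small part. At day 39 the hippocampal minus cortical response was -0.06 ± 0.22 for Hbb, -0.05 ± 0.23 for Hbb-b1 and -0.25 ± 0.21 for Hba-a1 (SE; adjusted p = 0.991, 0.995 and 0.960). The 95% intervals were -0.50 to 0.38, -0.50 to 0.40 and -0.67 to 0.16. limma called 0 probes in this comparison (0%), with 774 at an unadjusted p below 0.05. At day 16 the same quantity, given as a description, was -0.14 ± 0.23, 0.31 ± 0.24 and 0.49 ± 0.22.

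Saline rats were compared between the days, a comparison in which age and time since injection move together and which shares the day 16 saline rats with the contrast that chose the genes, so it is a description with no test. In the hippocampus day 39 minus day 16 was 0.66 ± 0.20 for Hbb-b1, 0.48 ± 0.19 for Hba-a1 and -0.01 ± 0.19 for Hbb (SE). The medians of Hbb-b1 were 9.92 at day 16 and 10.55 at day 39. Cortical differences were 0.17 for Hbb, 0.12 for Hbb-b1 and -0.12 for Hba-a1. Over all probes limma called 0% in each tissue, with 855 and 1307 at an unadjusted p below 0.05.

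Prenatal diet was compared separately in saline rats, in adjuvant rats at day 16 and in adjuvant rats at day 39. Over these 54 comparisons of a member the differences ran from -0.47 to 0.68. Those in adjuvant rats at day 16 and in saline rats, averaged over both days, share rats with the contrast that chose the genes. They are therefore given as a description with no test. Among the tests in adjuvant rats at day 39, 2 had an unadjusted p below 0.05. These were Hbb, higher in ethanol than pairfed adjuvant rats of the hippocampus at day 39 by 0.68 ± 0.26 (SE; p = 0.0113, adjusted p = 0.852), and Hbb-b1, higher there in ethanol than control rats by 0.55 ± 0.27 (SE; p = 0.0456, adjusted p = 0.670). In saline rats the 3 probes differed between diets by -0.29 to 0.32. The background was 0% in these comparisons, apart from 0.0131% (ethanol minus control) and 0.00653% (pairfed minus control) in adjuvant rats of the hippocampus at day 39. The comparisons without a call by limma held 382 to 833 probes at an unadjusted p below 0.05.

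Hemoglobin signal varied between rats of the same group more than most probes of like brightness. The residual SD, after group and chip, was 0.52 for Hbb, 0.51 for Hbb-b1 and 0.45 for Hba-a1 in the prefrontal cortex, where the median over all probes was 0.38. In the hippocampus it was 0.52, 0.57 and 0.53 beside a median of 0.40. Among the 776 prefrontal cortex probes at least as bright as the dimmest member the 3 ranked 13, 15 and 63 in spread, and among 1100 in the hippocampus 47, 28 and 43.

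Repeat hybridizations of the same RNA give a technical spread. Their SD was taken over arrays on several chips with no chip term, so chip differences enter it and do not enter the residual SD above. The measures are thus unlike, and no technical share is read from them. In 4 hippocampus rats with 4 arrays each the pooled SD between repeats was 0.36 for Hbb, 0.27 for Hbb-b1 and 0.33 for Hba-a1. In the 1 prefrontal cortex rat with 9 arrays, on 8 chips, it was 0.34, 0.23 and 0.51, and Hba-a1 ran there from 12.04 to 13.71. The repeats of Hba-a1 in that rat spanned more than the 0.45 difference between adjuvant and saline rats. The number of detected probes of an array correlated with the residuals by -0.04 (Hbb), -0.00 (Hbb-b1) and 0.24 (Hba-a1) across 87 prefrontal cortex rats and by 0.22 to 0.23 across 84 hippocampus rats, and its part in the results was not tested beyond the fits with it as a covariate.

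The 3 probes varied together from rat to rat. Across 87 rats the residual correlation in the prefrontal cortex was 0.58 between Hbb and Hbb-b1, 0.55 between Hbb and Hba-a1 and 0.43 between Hbb-b1 and Hba-a1. In the hippocampus, across 84 rats, it was 0.50, 0.37 and 0.59. Both probes of a pair come from the same array and RNA, so these values are a description. Hba-a3, a further alpha-type gene on chromosome 10, correlated with the members at 0.26 to 0.53 (cortex) and 0.37 to 0.68 (hippocampus). The probe of Hba-a2, detected on 42 of 192 arrays, correlated with them at -0.02 to 0.13.

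**Figure D3:**
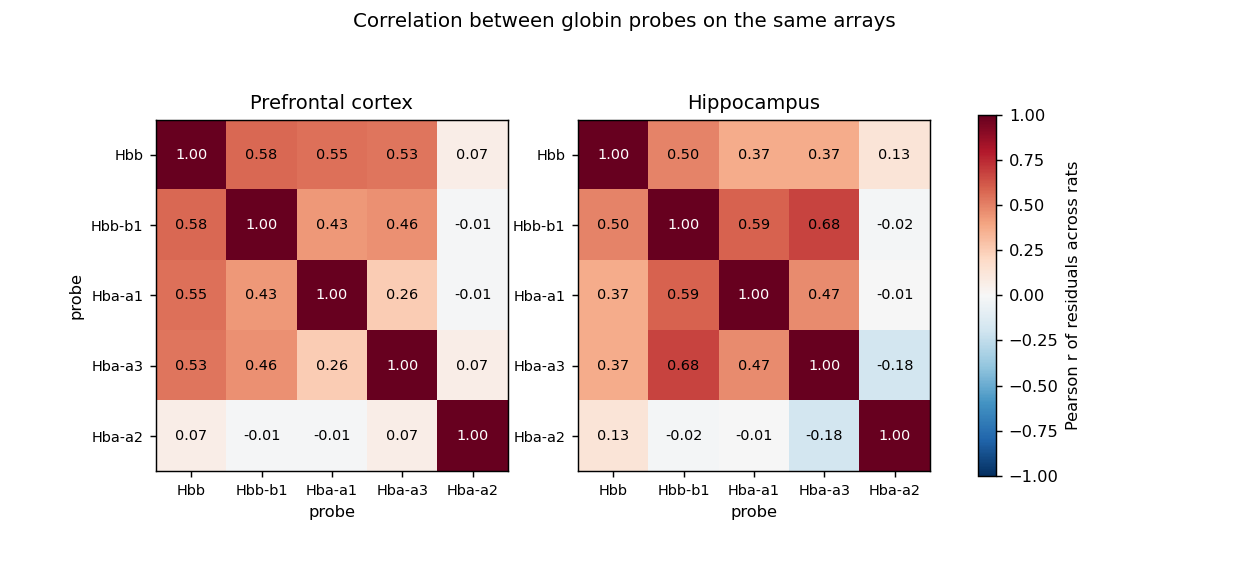
Pearson correlation (colour, number in each cell) of residuals after group and chip between globin probes across rats, in the prefrontal cortex (left, 87 rats) and hippocampus (right, 84 rats); both axes list the probes. Hbb, Hbb-b1, Hba-a1 and Hba-a3 form a block of positive values from 0.26 to 0.68, and Hba-a2, which most arrays did not detect, stays between -0.18 and 0.13.

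Rats with high hemoglobin signal in one tissue tended to have it in the other. Across 84 rats the residuals of the 2 tissues correlated at r = 0.262 for Hbb (rho = 0.252; adjusted permutation p = 0.0258 and 0.0280), r = 0.282 for Hbb-b1 (rho = 0.323; 0.0193 and 0.0072) and r = 0.284 for Hba-a1 (rho = 0.325; 0.0193 and 0.0072). The test permuted rats within their group 100000 times, two-sided, and was adjusted over the 3 relations. Without the 2 rats farthest from the median of the prefrontal cortex, r was 0.249, 0.282 and 0.300. Without the rat whose prefrontal cortex array matched another rat, r was 0.266, 0.263 and 0.276.

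The tissue relation depended on the scaling of the arrays. With median scaling r fell to 0.159, 0.156 and 0.0836, and the adjusted permutation p was 0.288, 0.288 and 0.469, so the call was lost for all 3 probes. The sign of the residual was shared by both tissues in 49, 52 and 54 of 84 rats for Hbb, Hbb-b1 and Hba-a1. The relation was of like size between unlike members: cortical Hba-a1 correlated with hippocampal Hbb at 0.338 and cortical Hbb with hippocampal Hba-a1 at 0.17, and the 9 pairs of a cortical and a hippocampal probe all lay between these values.

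**Figure D4:**
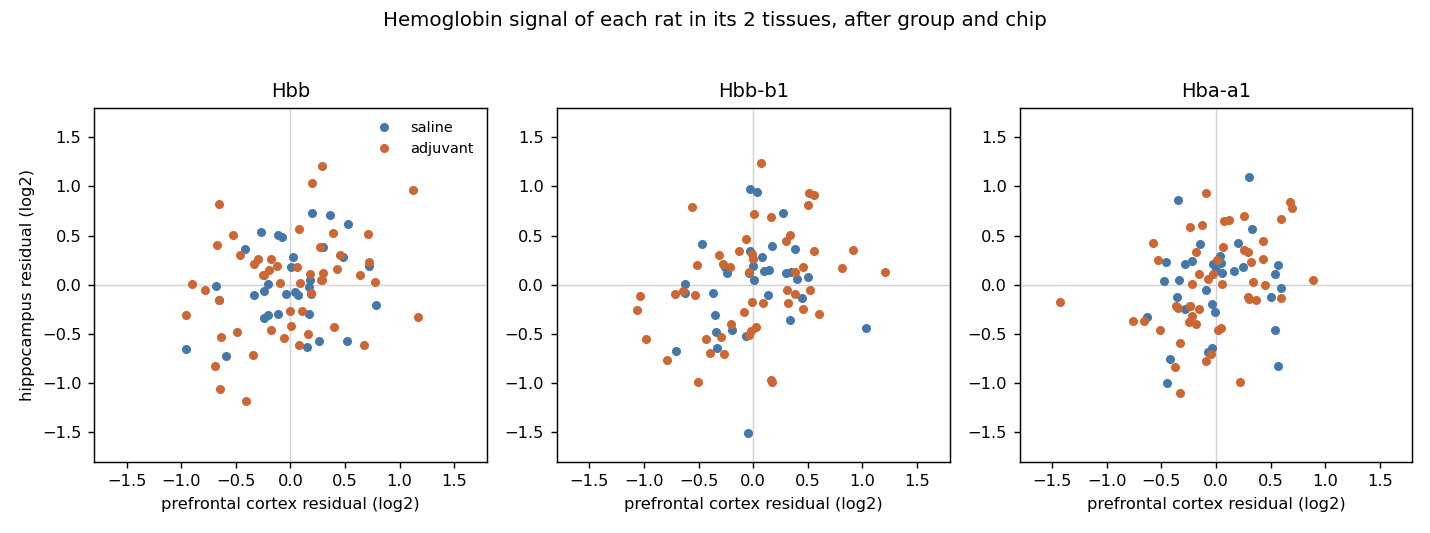
Residual log2 signal of each of 84 rats in the prefrontal cortex (x axis) and the hippocampus (y axis), after group and chip, for Hbb, Hbb-b1 and Hba-a1; blue points are saline rats and orange points adjuvant rats. The clouds lean upward from left to right with wide scatter, at r = 0.262, 0.282 and 0.284.

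Genes whose residuals followed the mean residual of the 3 members most closely were sought among 10165 named genes of the prefrontal cortex and 10173 of the hippocampus. Hba-a3 ranked first in both, at r = 0.513 and 0.631. In the prefrontal cortex it was followed by Ybx3, a Y-box nucleic acid binding protein (0.475), Nutf2, a nuclear transport factor (0.419), Plin3, a lipid droplet coat protein (0.414), and Parp16, an ADP-ribosyltransferase (0.406, detected on 37 of 87 arrays). The hippocampus gave Cidea, a lipid droplet protein (0.568, detected on 34 of 84 arrays), Csrp1, a LIM domain protein (0.496), Ogn, a small proteoglycan of the extracellular matrix (0.483), and Tie1, an endothelial receptor (0.473). Of the 50 highest in each tissue, 2 were shared, Hba-a3 and Cdr2, and the 99th percentile over all genes was 0.288 and 0.349.

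Other globin genes were measured as well, and 0 of 5 tested passed in either tissue at either day. At day 16 Hba-a3 differed by 0.46 ± 0.23 (prefrontal cortex) and 0.58 ± 0.26 (hippocampus; SE; adjusted p = 0.995 and 0.722), on the same side as the members. Its medians were 6.62 in saline and 7.15 in adjuvant rats of the prefrontal cortex and 6.16 and 6.62 in the hippocampus. At day 16 Hba-a2, cytoglobin (Cygb), neuroglobin (Ngb), the globin of neurons, and myoglobin (Mb), the globin of muscle, differed by -0.05 to 0.13. Ngb was detected on only 5 of 87 and 16 of 84 arrays.

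Red cell membrane and erythroid genes did not pass the test, 0 of 17 (prefrontal cortex) and 0 of 18 (hippocampus) at day 16. In the hippocampus 14 of 18 were on the higher side with a median of 0.10, beside 48.1% of all probes and a median of -0.01, and in the prefrontal cortex 11 of 17 with a median of 0.02, beside 50.5% and 0.00. Ahsp, the chaperone of free alpha chains, differed by 0.42 ± 0.15 in the hippocampus (SE; adjusted p = 0.574) and 0.14 ± 0.18 in the prefrontal cortex. It was detected on 35 of 84 and 78 of 87 arrays. Slc4a1, the anion exchanger of the red cell membrane, differed by 0.11 and -0.06, and was detected on 28 of 84 and 34 of 87 arrays. The signal of the whole list of 23 genes, summed and given as log2, ran from 11.75 to 12.75 in saline and 12.17 to 12.80 in adjuvant rats of the hippocampus, and from 12.51 to 12.90 and 12.30 to 12.96 in the prefrontal cortex.

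Heme synthesis genes, which make the iron ring that globin chains hold, passed in 0 of 11 and 0 of 12 cases in the prefrontal cortex and hippocampus, where 8 and 7 were on the higher side with medians of 0.04 and 0.02. Alas2, the first enzyme of heme synthesis in red cell precursors, was detected on 5 of 84 hippocampus arrays and differed there by 0.13 ± 0.11 (SE; adjusted p = 0.875). Genes of hemoglobin clearance and iron passed in 0 of 12 and 0 of 13, with 5 and 8 on the higher side and medians of -0.03 and 0.04. Cp, the ferroxidase ceruloplasmin, differed by 0.43 ± 0.15 and 0.45 ± 0.15 (SE; adjusted p = 0.629 and 0.555), and Hmox1, which breaks down heme, by 0.09 and -0.08. Cp was detected on 27 of 87 and 35 of 84 arrays. Hypoxia genes passed in 0 of 10 and 0 of 9, with 7 and 8 on the higher side and medians of 0.16 and 0.07.

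Of the lists for other blood cells and for vessels, 3 genes passed at day 16 in both tissues. The lists were chosen with earlier results of these data known, so these calls are a description and nothing is read from their number. S100a8, a neutrophil protein, rose at day 16 by 1.69 ± 0.22 (prefrontal cortex) and 1.32 ± 0.23 (hippocampus; SE; adjusted p = 4.09e-07 and 0.00105). It was the 1 white cell gene called of 8 and of 7, and was detected on 47 of 87 and 24 of 84 arrays. Of the white cell genes 7 of 8 and 3 of 7 were on the higher side, with medians of 0.12 and -0.003, so that the hippocampal list as a whole was centred near 0. Vwf, the endothelial clotting factor, rose by 0.91 ± 0.14 and 0.98 ± 0.16 (adjusted p = 3.76e-05 and 0.000132) and Slc38a5, an amino acid transporter, by 0.82 ± 0.16 and 0.88 ± 0.18 (adjusted p = 0.00362 and 0.00811), 2 of 11 endothelial genes in each tissue. Of the 11, 8 and 7 were on the higher side, with medians of 0.07 and 0.13. Pf4, a platelet chemokine, differed by 0.49 ± 0.18 and 0.47 ± 0.19 (adjusted p = 0.751 and 0.682), and 0 of 4 and 0 of 3 platelet genes passed, with 3 and 3 on the higher side and medians of 0.16 and 0.22.

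The white cell list, 13 genes summed, ran from 8.66 to 9.29 in saline and 8.92 to 9.83 in adjuvant rats of the prefrontal cortex at day 16 and from 8.73 to 9.22 and 8.92 to 9.98 in the hippocampus. The endothelial list of 12 ran from 10.96 to 12.11 and 11.56 to 12.36, and from 11.08 to 11.80 and 11.22 to 12.20. Across rats, after group and chip, S100a8 correlated with the mean hemoglobin residual at 0.03 and 0.01 and Vwf at 0.01 and 0.40 in the prefrontal cortex and hippocampus. In the same order, the median r was -0.01 and -0.01 over the red cell and erythroid genes and -0.03 and 0.01 over the white cell genes. It was 0.05 and 0.23 over the platelet genes and 0.07 and 0.12 over the endothelial genes. The highest hippocampal medians were those of oligodendrocyte genes (0.01 and 0.29) and choroid plexus genes (-0.01 and 0.26). The part of blood or vessel content in the hemoglobin differences was not tested. At day 39 no gene of any of these lists passed.

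**Figure D5:**
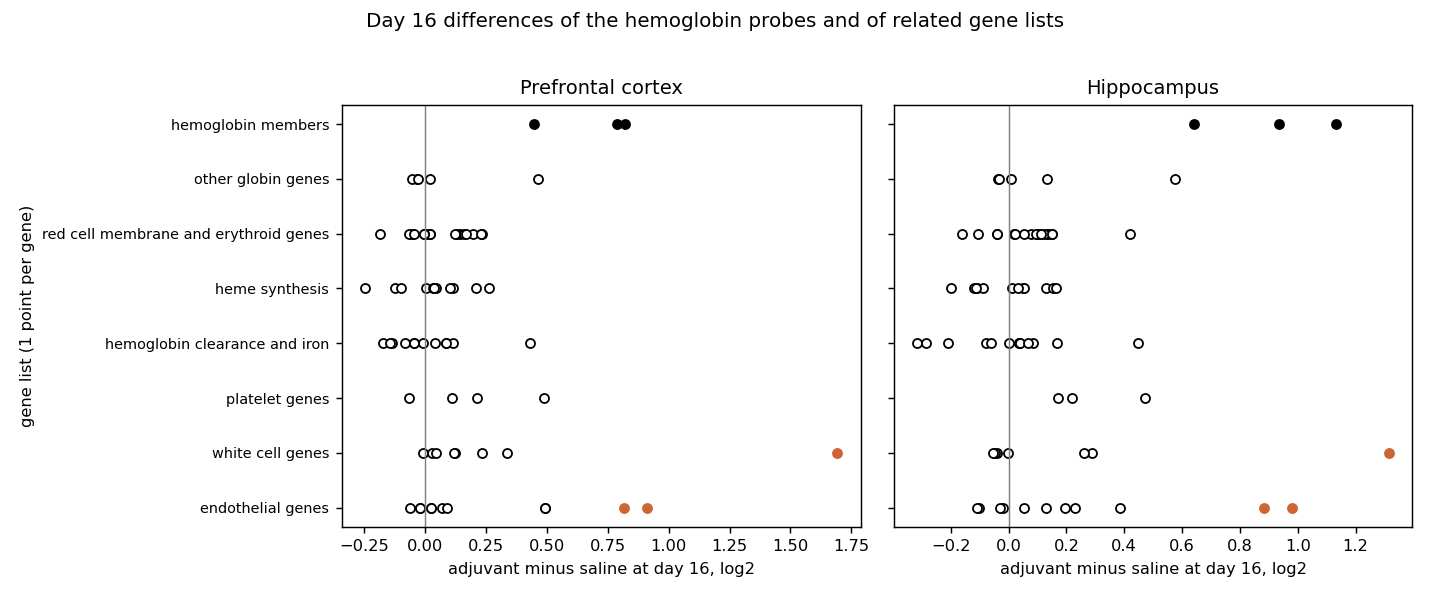
Adjuvant minus saline difference at day 16 (x axis, log2) of the 3 hemoglobin probes (black, shown without a test) and of each tested gene of 7 related lists (y axis), by tissue; orange points passed the test at an adjusted p below 0.05 and open points did not. The members lie at 0.45 to 1.13. Among the lists, which were chosen with earlier results of these data known, S100a8, Vwf and Slc38a5 passed in both tissues. The red cell, heme and platelet genes lie between -0.24 and 0.49.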

How the data were processed

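Gene expression was measured on Illumina rat BeadChips in 192 arrays. Per the file headers, the deposited raw table pairs each array's signal with a detection p-value for every probe. Its values lie in a range that led to reading the deposited signal as log2. The authors' deposited value table, also log2, served as an alternative. Which scanner software and background handling the authors used was not stated in the sources used here. Per the labels' protocols, RNA (250 ng) was amplified about 24 samples at a time, balanced over the groups, and the batch of each sample was not used here.

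After back-transformation to linear signal, background was removed by normexp with the detection p-values as guide (offset 16), the 192 arrays were quantile-normalized together, and log2 was taken (limma 3.58.1, R 4.3.3). The offset makes folds of dim probes too small. A tissue's tests covered the probes detected (p below 0.05) on 5 or more of its arrays, which were 15250 cortical and 15320 hippocampal probes. For each tissue limma fitted 12 groups with chip as a fixed term, 1 array per rat. p-values were adjusted by Benjamini-Hochberg over all probes of a comparison, and calls were made below an adjusted 0.05. The joint model of both tissues gave a rat correlation of 0.0327. Tissue relations used permutation in numpy 2.4.6. Of the 22502 probes, 13787 had 1 gene symbol, 0 had several and 8715 are unnamed here. List sums are linear signals summed over the genes on the array. Names and promoters come from RefSeq, assembly GRCr8.

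The members and gene lists were chosen with earlier results of these data known. Genes named beside the members are, per tissue, the 5 named genes whose residuals correlate best with the mean member residual, those among the 50 best in both tissues, and per list up to 3 genes with the smallest p, plus Slc4a1, Hmox1, Alas2 and the tissue markers, which were named for their role after their values were seen. Alternatives covered background correction, scaling, the authors' values, the offset of 50, the filter, chip, repeat arrays, the replicate block, detected probes as a covariate and leaving out single saline day 16 rats. On simulated data with 200 changed probes, the day 39 comparison found, for true folds of 1.25, 1.5 and 2, 22.4%, 77.6% and 100% of the cortical and 16.4%, 70.1% and 97% of the hippocampal changes. It made 12 and 6 false calls. The simulated noise was independent between probes, and 200 changed probes ease the adjustment, whereas the real comparison called 0. The SE of each member was also above the median SE of its tissue (0.116 and 0.128). These shares are therefore not the chance that a hemoglobin change would be called. The number of arrays limits the precision.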

Additional observations from a re-analysis of the deposited data

Results flagged for a closer look

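Each member was read in each group of 4 to 10 rats, which gave 72 groups, and 2 of them held a rat that stood apart from the others by Dixon's criterion. Chance alone marks about 1 in 20 groups. In the hippocampus the control saline day 16 rat of replicate 3 had the lowest Hba-a1 signal of its group, 11.27, with the next rat at 12.21, a gap of 0.756 of the group's range against a critical value of 0.71. Also in the hippocampus the ethanol saline day 16 rat of replicate 4 had the highest Hbb signal of its group, 12.99, with the next rat at 12.51, a gap of 0.83 of the range. Both rats are saline day 16 rats, and both stayed in the comparisons. Without the first, the day 16 Hba-a1 difference was 0.87.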

How the results depend on the processing

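Over 11 other settings the day 16 difference ran from 0.48 to 0.87 (Hbb), 0.46 to 0.91 (Hbb-b1) and 0.42 to 0.53 (Hba-a1) in the prefrontal cortex and from 0.37 to 0.72, 0.85 to 1.22 and 0.67 to 1.01 in the hippocampus. Leaving out single saline rats gave 0.73 to 0.85, 0.76 to 0.87 and 0.40 to 0.50, and 0.56 to 0.71, 1.00 to 1.22 and 0.87 to 0.97. With the replicate block, 0 members were called at day 16 in the prefrontal cortex in place of 2, with differences of 0.48 (Hbb) and 0.46 (Hbb-b1), and calls over all probes moved from 20 to 0 there and from 9 to 13 in the hippocampus. At day 39 the block gave 0.167 (Hbb) and 0.0659 (Hbb-b1) in the prefrontal cortex, from 0.31 and 0.29. The numbers name different rats, and the labels give no pairing by number. In residuals after groups, same-numbered arrays correlated at 0.0259 and 0.058, beside -0.00333 and -0.008 for other numbers. There 24 of 87 and 21 of 84 arrays were closest to their own number. After groups and chip the same-number correlations were -0.0304 and 0.0515, with 2 of 87 and 17 of 84 closest. Same-numbered pairs in the prefrontal cortex shared a chip in 39.7% of cases against 8.59%. Median scaling called 0 members in the hippocampus at day 16 in place of 2, and its calls over all probes were 4 higher and 12 lower, against 9 and 0. It lowered the tissue relation to 0.159, 0.156 and 0.0836, gave 0.0339, 0.00796 and -0.10 in the hippocampus at day 39, where the median of all probes moved to -0.10 (Hba-a1 relative to it -0.01), and, for the prefrontal cortex ethanol response of Hba-a1 at day 39, gave 0.43 against control and 0.16 against pairfed, from -0.06 and -0.10. The cause was not tested. In pairfed hippocampus rats at day 16, 1 member was called with detected probes as a covariate, and 0 to 1 when single rats were left out, the 1 without ethanol saline replicate 1. The Hbb difference between days in hippocampus saline rats, -0.01, became 0.0273 with that covariate and ran from -0.0908 to 0.0650 without single rats. On log2 levels 8 genes were shared between the tissues' 50 most alike, against 2. The array with the fewest detected probes, ethanol saline day 39 replicate 2 of the prefrontal cortex, was left out after seeing the data, which gave day 39 differences of 0.30, 0.32 and 0.34. The number of arrays limits what differences could be shown.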
